A study of Danio rerio with 9 samples.

Results

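The nuclear genes of respiratory complex I were followed in single primordial germ cells (PGCs) of the zebrafish, the precursors of eggs and sperm. The members were all genes whose symbol in the expression table began with nduf, written in lower case. They numbered 46 of the 32266 genes listed: 37 subunits of the enzyme, 6 assembly factors with symbols beginning ndufaf, and 3 genes of the ndufa4 family, which was named for complex I and is now placed with complex IV.

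The 9 cells were 3 PGCs at 6 hours post fertilization (hpf, shield stage), 3 at 11 hpf (3-somite stage) and 3 at 24 hpf (prim-5 stage), all of strain AB. At all 3 stages the embryos carried a transgene in which the kop promoter drives EGFP followed by the nanos3 3′ UTR, and cells were picked by hand for green fluorescence. At 6 and 11 hpf a whole embryo was dissociated, whereas at 24 hpf only the trunk was used, after the head, tail and yolk had been removed. Each stage was represented by 1 embryo, so its 3 cells were not independent replicates of the stage and no test between stages was made. Cells are written here as stage and number, such as 24_1 for the first cell at 24 hpf.

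Complex I is the first enzyme of the mitochondrial respiratory chain. It takes electrons from NADH, passes them along iron-sulfur clusters to ubiquinone, and pumps protons across the inner membrane as it does so. A matrix arm carries the redox chemistry and a membrane arm carries the proton pumps. The catalytic core of the matrix arm is encoded in the nucleus and that of the membrane arm in the mitochondrial genome, while a large set of accessory subunits, all nuclear, surrounds both arms. Assembly factors build the enzyme from modules and do not remain in it. Primordial germ cells inherit their mitochondria from the egg. The roles given below for single subunits and factors are those known from mammals.

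Levels are in FPKM (fragments per kilobase of transcript, relative to all mapped fragments of the library), which is scaled for gene length and for the library total, so that it says nothing of the amount of RNA in a cell. The number of fragments behind a value cannot be read from the table, and an FPKM listed at 0 can be a failed estimate as well as an absent transcript. Summed over all genes, a cell's FPKM came to 548917 at the lowest and 613048 at the highest. A gene entered the comparisons if 3 or more of the 9 cells had it at an FPKM of 1 or above, which left 9329 kept genes. Of these kept genes, between 4774 in 24_1 and 7102 in 6_1 reached an FPKM of 1 in a cell, and 24_1 had the fewest, with 5729 in the next lowest cell. Of 12 germline markers, between 9 and 11 were at an FPKM of at least 10 in every cell. Their mean share of the summed FPKM was 4.23% for 6 hpf, 6.19% for 11 hpf and 2.20% for 24 hpf. The highest of the 12 in every cell was nanos3, with 9153 of their summed 18252 FPKM in 6_1 and 8560 of 11602 in 24_1. The transgene carries the nanos3 3′ UTR, and what part its transcripts have in the nanos3 level was not tested. Muscle markers, 13 genes, differed between stages: 8, 9 and 2 of them were at an FPKM of at least 10 in 24_1, 24_2 and 24_3, against at most 2 in any cell at 6 or 11 hpf. Their summed FPKM was 662, 2579 and 75.2 in the 24 hpf cells and at most 38.2 in any earlier cell. Epidermal markers, 8 genes, summed to 86.4 to 176 at 6 hpf, 159 to 429.6 at 11 hpf and 60.6 to 282 at 24 hpf. These sums include epcam, which was detected in all 9 cells, at 60.6 to 261 FPKM, and made up the whole sum in 6_3 and 24_2. Keratin krt4 was at 122 in 11_1 and 187 in 24_1 and was listed at 0 in 5 cells. The 8 neural markers summed to 0 to 26.5, 18.8 to 105 and 1.0 to 93.1 at the 3 stages in turn, and the 6 notochord markers to 0 to 173, 0 to 96.4 and 0 to 16.4. The blood markers summed to at most 9.38 and the endothelial markers to at most 5.80 in any cell. What part RNA of other cell types has in the results was not tested.

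Complex I subunits took a larger share of the measured RNA at 24 hpf than at either earlier stage. As a share of a cell's summed FPKM, the 37 subunits together made up 0.463%, 0.539% and 0.386% in the 6 hpf cells, 0.404%, 0.466% and 0.502% in the 11 hpf cells and 1.90%, 1.61% and 1.44% in the 24 hpf cells. The lowest cell at 24 hpf was thus above the highest cell at 11 hpf, by a ratio of 2.88, and the mean share at 24 hpf was 3.61 times that at 11 hpf. With the SD over the 3 cells of each embryo, the mean shares were 0.463% ± 0.077 for 6 hpf, 0.458% ± 0.049 for 11 hpf and 1.65% ± 0.23 for 24 hpf. Between 11 and 6 hpf the ratio was 0.989, a difference smaller than the SD among the cells of either stage. The summed FPKM of the subunits was 2649.9, 3167 and 2139.9 in the 6 hpf cells, 2233, 2617 and 2754 in the 11 hpf cells and 11636, 9545 and 8322 in the 24 hpf cells.

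**Figure D1:**
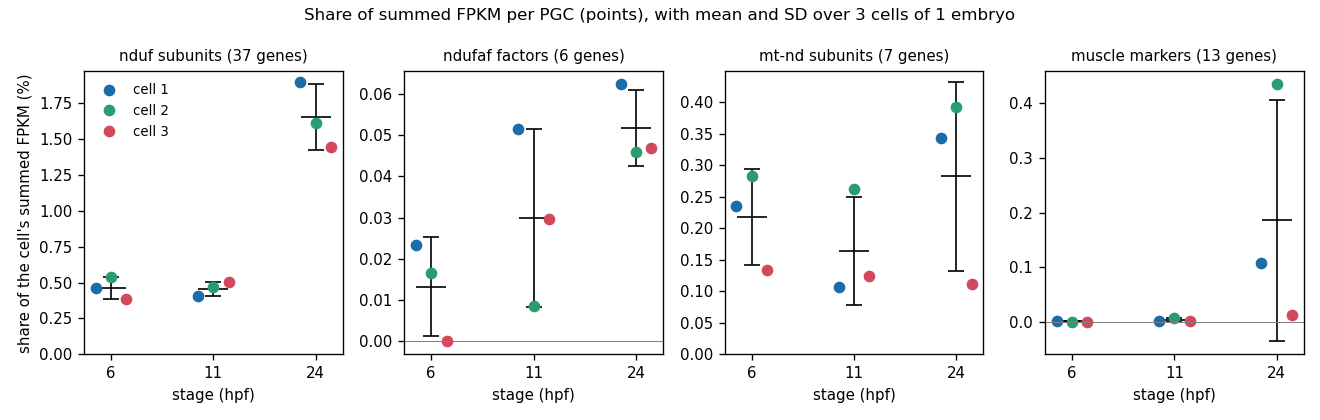
Share of a cell's summed FPKM (percent, vertical axis) taken by the 37 nduf subunits, the 6 ndufaf assembly factors, the 7 mitochondrially encoded subunits and 13 muscle markers at 6, 11 and 24 hpf (horizontal axis). Points are cells, the horizontal line is their mean and the bar is 1 SD over 3 cells of 1 embryo. The subunits lie between 1.44% and 1.90% at 24 hpf, above all cells at 6 and 11 hpf, while the shares of the mitochondrially encoded subunits overlap between stages.

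The summed FPKM of the muscle markers was higher at 24 hpf as well, in all 3 cells, but not every marker was. Among these cells their sum was lowest in 24_3, where actc1b, a muscle actin, was at 4.11 FPKM and acta1b, myl1, mylpfa and ckma were listed at 0. The marker tnnc2 was also lowest in 24_3, at 27.5, 22.2 and 5.45 FPKM in the 24 hpf cells. Listed at 0 in 24_3 as well were tnni2a.4, at 88.4 in 24_1, and tnnt3a, at 43.6 in 24_2. The markers mylz3 and mybphb were not lowest in 24_3. The FPKM of mylz3, a myosin light chain, was 28.9, 159.8 and 39.7 in the 24 hpf cells, against at most 12.3 in any earlier cell. That of mybphb, a myosin-binding protein, was 36.8, 21.7 and 26.0, and mybphb was listed at 0 in all earlier cells. The subunit share was also lowest in 24_3, at 1.44%, whereas the cell with the highest share, 24_1, was not the one with the highest muscle sum, 24_2. The part of the muscle signal in the higher subunit share was not tested. The number of kept genes detected in a cell was lower at 24 hpf too. Over all listed genes this held for 24_1 and 24_3, with 5771 and 6654 at an FPKM of at least 1. In 24_2 there were 7376, above the 6845, 7005 and 6902 of the 11 hpf cells. The part of the number detected in the result was not tested.

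The higher share at 24 hpf was spread over nearly every subunit. For each gene, the difference between stages was taken as log2(mean FPKM + 1) at the later stage minus the same at the earlier stage, and its spread as the square root of the summed variances of log2(FPKM + 1) among the cells of both stages. Of the 37 subunits, 36 were kept, and ndufs8b was not. For 24 over 11 hpf, 35 of the 37 had a higher mean at 24 hpf, 1 had a lower mean, and ndufs8b was listed at 0 at both stages. Of all kept genes, 47.4% had a higher mean at 24 hpf. The median log2 difference of the kept subunits was 1.96, with a spread of 0.43 between cells, whereas the median of all 9329 kept genes was −0.08. The lower and upper quartiles were 1.22 and 2.81 for the kept subunits, and −1.47 and 1.06 for all kept genes. Under other scalings of the libraries the kept subunits were also 35 higher and 1 lower.

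The difference was at least 2-fold in 28 of the 37 subunits (75.7%), against 26.1% of all kept genes, and at least 2-fold in the lower direction in 1 subunit, against 31.5% of all kept genes. In 22 of the 37 (59.5%) all 3 cells at 24 hpf were above all 3 cells at 11 hpf, against 8.62% of all kept genes. No subunit had all 3 cells at 24 hpf below those at 11 hpf, where 10.2% of all kept genes did. In 20 of the 37 the mean at 24 hpf was higher by more than the gene's own spread between cells, against 13.6% of all kept genes. The kept subunits had passed a filter that a high level at 24 hpf alone can satisfy, and this is why the counts are given over all 37. The shares set beside them are over kept genes. With no filter, 29.4% of the 16053 genes above an FPKM of 0 in any cell were at least 2-fold higher at 24 hpf.

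**Figure D2:**
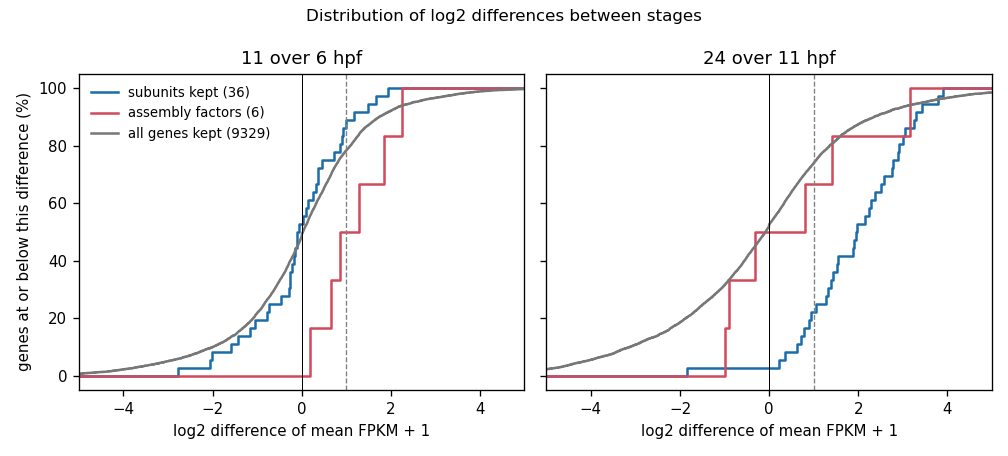
Cumulative percentage of genes (vertical axis) at or below a given log2 difference of mean FPKM + 1 (horizontal axis) for 11 over 6 hpf and 24 over 11 hpf. Lines show the 36 kept subunits, the 6 assembly factors and all 9329 kept genes, with a dashed line at a log2 difference of 1. For 24 over 11 hpf the subunits lie to the right of all genes, with a median of 1.96 against −0.08, and for 11 over 6 hpf the 2 lines cross near 0.

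Each cell at 24 hpf showed the difference by itself. Set against the mean of the cells at 11 hpf, the median log2 difference of the kept subunits was 1.79 in 24_1, 1.94 in 24_2 and 1.52 in 24_3, where the median of all kept genes was −1.12, −0.39 and −0.44. The subunits higher than the 11 hpf mean numbered 35, 33 and 30 of 36 in these 3 cells. Of all 9329 kept genes, 3232, 3820 and 3783 were higher in the same cells. No kept subunit was listed at 0 in 24_1 or 24_2, and 3 were in 24_3. Over the 3 cells of a stage, 12.0% of the values of kept subunits were listed at 0 at 6 hpf, 13.0% at 11 hpf and 2.78% at 24 hpf. Among all kept genes this share ran the other way, with 23.1% at 6 hpf, 29.0% at 11 hpf and 37.8% at 24 hpf.

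**Figure D3:**
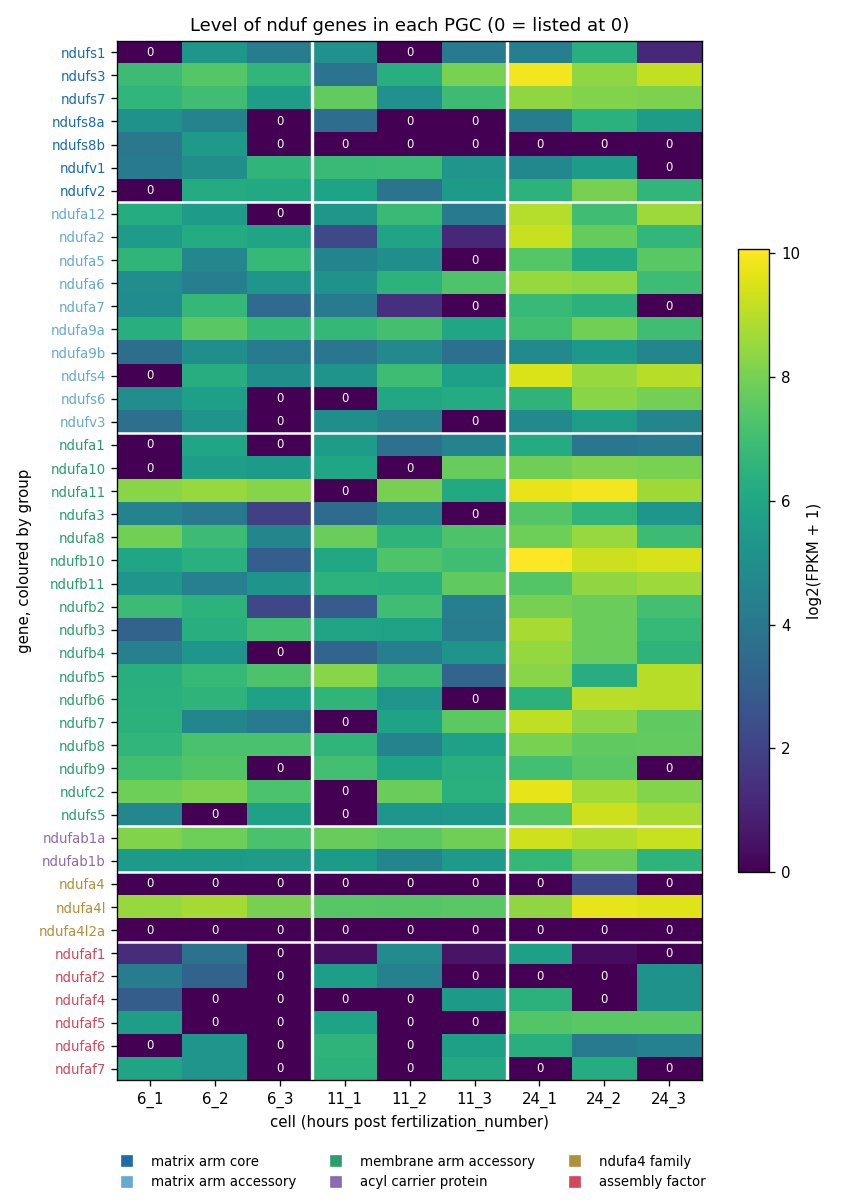
Level of 45 members (rows, grouped by their place in the enzyme) in each of the 9 PGCs (columns, by stage), as log2(FPKM + 1) on the colour scale. A 0 in a tile is a gene listed at 0. Most subunit rows are brighter in the 3 columns at 24 hpf, with ndufv1 and ndufs8b among the exceptions, and all 6 assembly factors are listed at 0 in cell 6_3.

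The core subunits of the matrix arm, which hold the redox centres, did not move as one. Of the 8 genes, 6 had a higher mean at 24 than at 11 hpf, against 47.4% of all kept genes. In 5 (62.5%) the difference was at least 2-fold, against 26.1% of all kept genes. In 4 (50%) all cells at 24 hpf were above those at 11 hpf, against 8.62% of all kept genes. For ndufs3, a structural core subunit, the FPKM was 119, 169 and 98.3 in the 6 hpf cells, 13.3, 78.0 and 265 in the 11 hpf cells and 957, 335 and 557 in the 24 hpf cells. All cells at 24 hpf lay above those at 11 hpf, although 11_1 and 11_3 differed widely (log2 difference 2.37, spread 2.25). That of ndufs7, which holds the last iron-sulfur cluster before ubiquinone, was 99.1, 125 and 48.4 in the 6 hpf cells, 199, 33.0 and 119 in the 11 hpf cells and 333, 285 and 272 in the 24 hpf cells. Its 3 cells at 24 hpf were close to each other and all above those at 11 hpf, with a log2 difference of 1.33 and a spread of 1.32.

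The core subunits of the NADH-oxidizing tip differed among themselves, with no overlap between the cells at 24 and 11 hpf in ndufv2 and overlapping cells in ndufv1 and ndufs1. The FPKM of ndufv1, which binds NADH and the flavin that accepts its electrons, was 16.7, 30.4 and 95.7 in the 6 hpf cells, 109, 114 and 37.3 in the 11 hpf cells and 24.7, 45.9 and 0 in the 24 hpf cells. It was the only kept subunit with a lower mean at 24 than at 11 hpf, with a log2 difference of −1.84, but its spread was 3.12 and 24_2 was above 11_3. Its neighbour ndufv2, an iron-sulfur subunit, went the other way, with 0, 71.3 and 67.7 in the 6 hpf cells, 56.6, 13.8 and 43.5 in the 11 hpf cells and 90.4, 258 and 97.6 in the 24 hpf cells. All of its cells at 24 hpf were above those at 11 hpf (log2 difference 1.94, spread 1.34). The largest subunit of the arm, ndufs1, which carries further iron-sulfur clusters, had an FPKM of 0, 38.8 and 17.6 in the 6 hpf cells, 33.6, 0 and 16.6 in the 11 hpf cells and 19.1, 78.3 and 1.20 in the 24 hpf cells. It was low and uneven at every stage, and its difference of 0.93 for 24 over 11 hpf was far inside its spread of 3.76. At 24 hpf the means of ndufv1 and ndufs1 were thus among the lowest of all subunits, while that of ndufs3 was among the highest.

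The iron-sulfur subunit ndufs8 is encoded by a pair of paralogs in the table, and the cells used them unequally. The FPKM of ndufs8a was 34.9, 21.5 and 0 in the 6 hpf cells, 11.2, 0 and 0 in the 11 hpf cells and 18.3, 85.7 and 46.1 in the 24 hpf cells. That of ndufs8b was 14.8 in 6_1 and 42.1 in 6_2 and was listed at 0 in the other 7 cells, so that it did not pass the filter on low values. Both copies were present in 6_1 and 6_2, with ndufs8a 2.35 times ndufs8b in 6_1 and 0.512 times in 6_2, and neither was in 6_3, 11_2 or 11_3. At 24 hpf ndufs8a alone was detected, in all 3 cells, all above those at 11 hpf (log2 difference 3.43, spread 2.35). Reads that 2 such copies share can be split between them by the counting, so the level of either copy is uncertain.

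All 10 accessory subunits of the matrix arm had a higher mean at 24 than at 11 hpf, against 47.4% of all kept genes. The median log2 difference of the 10 was 2.41. In 7 (70%) the difference was at least 2-fold, against 26.1% of all kept genes. In 5 (50%) there was no overlap between cells, against 8.62%. The FPKM of ndufa2, an accessory subunit with a thioredoxin-like fold, was 45.0, 72.4 and 57.2 in the 6 hpf cells, 3.60, 58.3 and 1.17 in the 11 hpf cells and 601, 207 and 99.4 in the 24 hpf cells. The cells at 24 hpf spanned a wide range but all exceeded those at 11 hpf (log2 difference 3.78, spread 2.82). For ndufs4, which is added late beside the NADH-oxidizing module and is mutated in some patients with Leigh syndrome, the FPKM was 0, 77.0 and 31.2 in the 6 hpf cells, 36.5, 123 and 50.7 in the 11 hpf cells and 731, 366 and 501 in the 24 hpf cells. All cells at 24 hpf were above those at 11 hpf, and the log2 difference of 2.91 was well above the spread of 1.02. That of ndufa5 was 95.3, 24.5 and 107 in the 6 hpf cells, 22.3, 31.5 and 0 in the 11 hpf cells and 167, 70.8 and 181 in the 24 hpf cells. Its cells at 24 and 11 hpf did not overlap, but those at 24 and 6 hpf did, with log2 differences of 2.89 and 0.87.

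The FPKM of ndufa6, a protein of the LYR family that binds the acyl carrier protein, was 29.5, 18.7 and 38.3 in the 6 hpf cells, 34.8, 90.7 and 154 in the 11 hpf cells and 367, 330.3 and 121 in the 24 hpf cells. It was higher at each later stage, although 11_3 was above 24_3 (log2 difference 1.54 for 24 over 11 hpf, spread 1.39). That of ndufa7 was 28.6, 104 and 10.6 in the 6 hpf cells, 16.8, 1.59 and 0 in the 11 hpf cells and 113, 87.4 and 0 in the 24 hpf cells. It was detected in 24_1 and 24_2 but listed at 0 in 24_3, so its difference of 3.25 had a spread of 4.39 and turned to −2.84 when 24_3 alone stood for 24 hpf. The remaining matrix arm accessories ndufa12, ndufs6 and ndufv3 had log2 differences of 2.57, 2.25 and 0.91. The cells of ndufa12 at 24 hpf (491, 124 and 386 FPKM) and of ndufs6, a zinc-binding subunit (93.1, 305 and 249 FPKM), lay above those at 11 hpf (39.5, 109 and 17.0 FPKM for ndufa12 and 0, 62.5 and 71.8 FPKM for ndufs6). Those of ndufv3 overlapped.

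The paralogs of ndufa9, a subunit at the joint between the arms, were detected in all 9 cells. The mean of each at 24 hpf was less than 2-fold above that at 11 hpf, at 1.65 times for ndufa9a and 1.75 times for ndufa9b. The FPKM of ndufa9a was 80.5, 178 and 104 in the 6 hpf cells, 102, 138 and 61.3 in the 11 hpf cells and 129.5, 241 and 127 in the 24 hpf cells. That of ndufa9b was 11.5, 31.1 and 16.2 in the 6 hpf cells, 14.4, 25.7 and 11.8 in the 11 hpf cells and 27.2, 40.4 and 23.3 in the 24 hpf cells. Their log2 differences for 24 over 11 hpf were 0.72 (spread 0.78) and 0.77 (spread 0.68), with overlapping cells in both. The level of ndufa9a was between 4.75 and 7.10 times that of ndufa9b in every one of the 9 cells. RefSeq's gene table for the assembly GRCz12tu, which is not the build of the expression table, lists ndufa9b as a pseudogene, the only member so classed of the 44 whose symbol it holds. How much of the ndufa9b level comes from reads shared with ndufa9a was not tested.

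All 17 accessory subunits of the membrane arm had a higher mean at 24 than at 11 hpf, against 47.4% of all kept genes. In 14 (82.4%) the difference was at least 2-fold, against 26.1% of all kept genes. In 11 (64.7%) there was no overlap between cells, against 8.62%. The median log2 difference of the 17 was 2.14, with a spread of 0.26 between cells, and the single genes ranged from 0.21 to 3.91. The FPKM of ndufb10, an accessory subunit of this arm, was 60.9, 82.8 and 7.15 in the 6 hpf cells, 64.3, 155 and 127 in the 11 hpf cells and 1073, 638 and 697 in the 24 hpf cells. It was the most abundant subunit at 24 hpf, and its log2 difference of 2.79 was far above its spread of 0.77. That of ndufs5, a small protein on the intermembrane side with paired cysteine motifs, was 24.0, 0 and 52.9 in the 6 hpf cells, 0, 37.7 and 40.5 in the 11 hpf cells and 171, 622 and 425 in the 24 hpf cells. It had the largest difference of all subunits (3.91, spread 3.22), and it was listed at 0 in 1 cell at each earlier stage. The FPKM of ndufb4 was 20.0, 37.9 and 0 in the 6 hpf cells, 8.75, 19.0 and 36.5 in the 11 hpf cells and 352, 215 and 93.2 in the 24 hpf cells, and all cells at 24 hpf were above those at 11 hpf (log2 difference 3.30, spread 1.37).

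For ndufb6, the FPKM was 83.1, 92.4 and 53.2 in the 6 hpf cells, 95.0, 37.6 and 0 in the 11 hpf cells and 86.9, 515 and 513 in the 24 hpf cells. The cell 24_1 lay within the range at 11 hpf, so that the difference of 3.04 was carried by 24_2 and 24_3 and was inside the spread of 3.78. The FPKM of ndufa11, which sits where complex I meets complex III in supercomplexes, was 314, 362 and 305 in the 6 hpf cells, 0, 255 and 68.7 in the 11 hpf cells and 839.5, 953 and 400.5 in the 24 hpf cells. It was the most abundant subunit at 6 hpf, was listed at 0 in 11_1, and was again high at 24 hpf (log2 difference 2.75, spread 4.24). That of ndufb8 was 99.0, 144 and 144 in the 6 hpf cells, 96.2, 22.0 and 53.7 in the 11 hpf cells and 261, 192 and 199 in the 24 hpf cells. It was the same pattern with less spread: all cells at 11 hpf were below those at 6 hpf, and all cells at 24 hpf were above both (log2 difference 1.91 for 24 over 11 hpf, spread 1.07).

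The FPKM of ndufb11, a membrane arm subunit, was 37.7, 19.8 and 36.3 in the 6 hpf cells, 90.5, 84.0 and 192 in the 11 hpf cells and 164, 338 and 389 in the 24 hpf cells. It was the only subunit whose cells were all higher at 11 than at 6 hpf, and at 24 hpf it was higher again in 24_2 and 24_3 (log2 difference 1.28 for 24 over 11 hpf, spread 0.93). Among the other membrane arm genes, the cells at 24 hpf were all above those at 11 hpf for ndufa3, ndufa10, ndufb2, ndufb3, ndufb7 and ndufc2, with log2 differences of 3.01, 1.53, 1.98, 2.52, 2.14 and 2.28 in that order. The FPKM of ndufa10, a kinase-like subunit, was 237, 278 and 261 at 24 hpf, close to each other, against 59.0, 0 and 208 at 11 hpf, where 1 cell was listed at 0. For ndufa1, ndufa8, ndufb5 and ndufb9 the cells overlapped, and the log2 differences were 0.37, 0.62, 1.06 and 0.21. Of these, ndufb9, another LYR protein, was at 133, 178 and 0 FPKM at 24 hpf and 133, 56.4 and 78.4 FPKM at 11 hpf, and gave the smallest positive difference of all subunits.

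**Figure D4:**
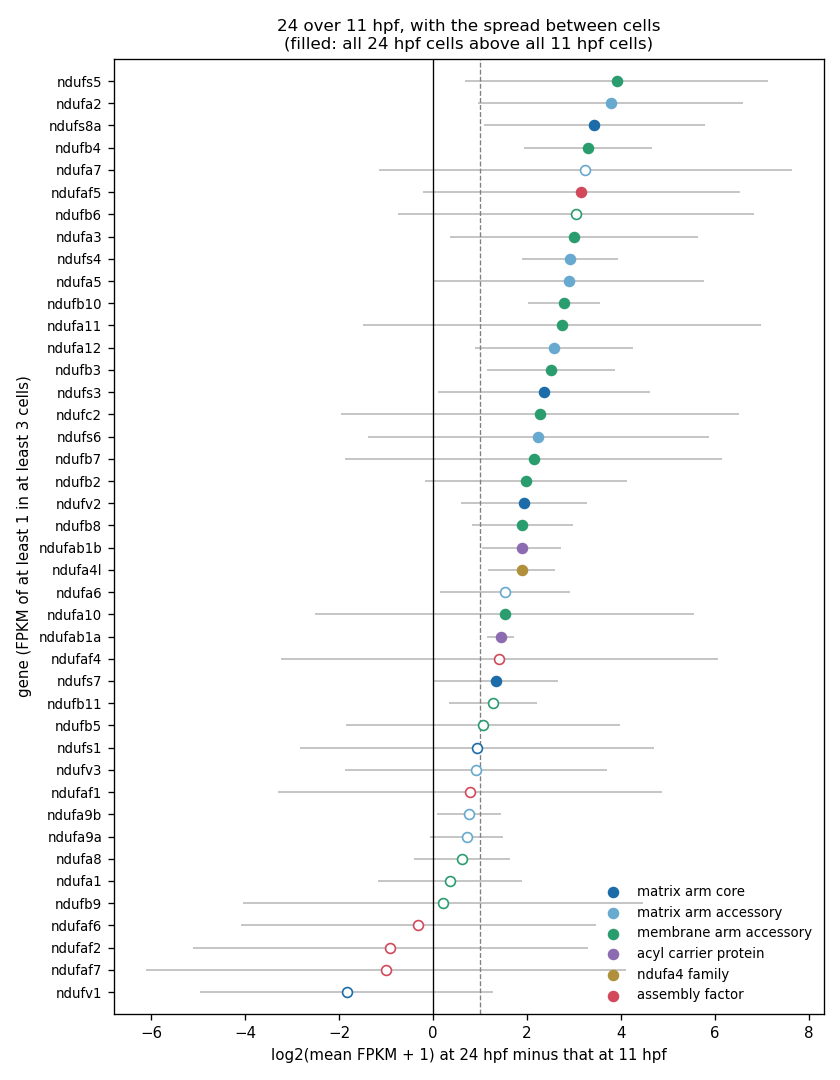
Log2 difference of mean FPKM + 1 for 24 over 11 hpf (horizontal axis) of 42 members that passed the filter on low values (rows, sorted). Grey bars are plus and minus the spread between cells, filled points are genes with all 3 cells at 24 hpf above all 3 at 11 hpf, and the dashed line is a 2-fold difference. The highest is ndufs5 at 3.91 and the lowest ndufv1 at −1.84, and of the 6 assembly factors ndufaf5 stands among the higher subunits at 3.16 and 3 are below 0.

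The mitochondrial acyl carrier protein is both a subunit of complex I and a carrier in mitochondrial fatty acid synthesis, and it too has a pair of paralogs. The FPKM of ndufab1a was 285, 230.1 and 142 in the 6 hpf cells, 211, 185 and 237 in the 11 hpf cells and 649.6, 478 and 594 in the 24 hpf cells. That of ndufab1b was 43.2, 44.1 and 45.5 in the 6 hpf cells, 44.3, 23.9 and 42.9 in the 11 hpf cells and 105, 223 and 92.4 in the 24 hpf cells. Both were detected in all 9 cells, with ndufab1a at 2.14 to 7.77 times the level of ndufab1b. In both, all cells at 24 hpf were above all earlier cells, and the log2 differences for 24 over 11 hpf were 1.44 (spread 0.29) and 1.89 (spread 0.84).

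Between 6 and 11 hpf the subunits showed no common direction. For 11 over 6 hpf, 17 of the 37 subunits were higher and 20 lower at 11 hpf, where 51.1% of all kept genes were higher. The median log2 difference of the 36 kept subunits was −0.08 with a spread of 0.46, beside 0.03 for all kept genes. The sign of this median turned when a single cell was left out, to 0.04 without 6_1, 0.25 without 6_2 and 0.07 without 11_2. Only 4 of the 37 (10.8%) were at least 2-fold higher, against 21.7% of all kept genes, and 8 (21.6%), ndufs8b included, were at least 2-fold lower, against 21.8%. The count of the 36 kept subunits at least 2-fold higher was 9 without 6_2, against 24.7% of all kept genes, and 8 without 11_1, against 21.8%. It was 6 without 6_1, against 24.4%, and 6 without 6_3, against 26.2%. In 1 subunit all cells were higher at 11 hpf, against 5.78% of all kept genes, and in 2 all were lower, against 6.96%.

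Among the largest differences of this interval were those of ndufb11 (1.93), ndufa6 (1.66), ndufb10 (1.18) and ndufs4 (0.94), among subunits with an FPKM of at least 1 in all 3 cells at 11 hpf. In the other direction the largest were ndufa7 (−2.77), ndufa5 (−2.02), ndufa11 (−1.59), ndufa2 (−1.43) and ndufb8 (−1.16), among those with an FPKM of at least 1 in all 3 cells at 6 hpf. Only ndufb11, ndufa11 and ndufb8 had cells that did not overlap between 11 and 6 hpf. The difference of ndufa11 was inside its spread of 4.19, with 1 cell at 11 hpf listed at 0, whereas those of ndufb11 and ndufb8 were beyond their spreads of 0.83 and 1.09. Each of these 5 lower subunits had a higher mean at 24 hpf than at 6 hpf.

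For 24 over 6 hpf, which shares its cells with the other comparisons, 35 of the 37 subunits were higher and 2 lower at 24 hpf. Of all kept genes, 48% were higher. The median log2 difference of the kept subunits was 1.65 (spread 0.50), beside −0.10 for all kept genes. The difference was at least 2-fold in 26 (70.3%), against 27.5% of all kept genes, and at least 2-fold in the lower direction in 1, ndufs8b, which was listed at 0 in all cells at 24 hpf, against 33.3%. In 22 (59.5%) all cells at 24 hpf were above all those at 6 hpf, against 10.4% of all kept genes, and in none were all below, against 14.6%. The largest differences were in ndufb10 at 3.97, ndufs5 at 3.93 and ndufs4 at 3.85. Of the 37 subunits, 35 had their highest stage mean at 24 hpf, ndufv1 had it at 11 hpf and ndufs8b at 6 hpf, where 36.9% of all kept genes had theirs at 24 hpf.

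The subunits of 1 enzyme were not at equal levels. On the FPKM scale, which is per length, the stage means of the 36 kept subunits differed by a factor of 24.1 at 6 hpf, 56.5 at 11 hpf and 34.1 at 24 hpf between the highest and the lowest. At 6 hpf ndufa11 was highest, with 327 ± 30.7 FPKM (SD, n = 3 cells), followed by ndufab1a with 219 ± 72.4 and ndufc2 with 215 ± 61.7. The last 2 of these differed by less than their SD, and ndufa11 was above both in every cell. At 11 hpf ndufab1a led with 211 ± 25.8. At 24 hpf the order was led by ndufb10 with 803 ± 236, ndufa11 with 731 ± 292, ndufs3 with 617 ± 315 and ndufab1a with 574 ± 87.7, and neighbours in this order did not differ beyond their SD. The lowest at 24 hpf were ndufs1, ndufa9b and ndufv1, whose mean was 23.5 FPKM.

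All 6 assembly factors were kept, and their values were sparse: 50.0% of them were listed at 0 at 6 hpf, 38.9% at 11 hpf and 33.3% at 24 hpf. For 24 over 11 hpf, 3 were higher and 3 lower, 2 of them (33.3%) at least 2-fold higher against 26.1% of all kept genes, and the median log2 difference was 0.24 with a spread of 3.46 between cells. The sign of that median turned when 24_1 was left out (−0.39) or 11_2 was left out (−0.01). Their summed FPKM was 134, 97.0 and 0 in the 6 hpf cells, 284.5, 48.3 and 163 in the 11 hpf cells and 383, 272 and 270.4 in the 24 hpf cells. All cells at 24 hpf exceeded 11_2, 11_3 and the cells at 6 hpf, but 11_1 was above 24_2 and 24_3.

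The FPKM of ndufaf5, an enzyme that hydroxylates an arginine of NDUFS7 early in assembly, was 49.1, 0 and 0 in the 6 hpf cells, 56.2, 0 and 0 in the 11 hpf cells and 163, 180.3 and 181 in the 24 hpf cells. It was the only assembly factor whose cells at 24 hpf were all above those at 11 hpf. That is 1 of the 6 (16.7%), against 8.62% of all kept genes. The log2 difference of ndufaf5 was 3.16 with a spread of 3.37, and its cells at 24 hpf were close to each other. The FPKM of ndufaf4, which acts on the quinone module of the matrix arm, was 6.73, 0 and 0 in the 6 hpf cells, 0, 0 and 43.8 in the 11 hpf cells and 87.5, 0 and 34.0 in the 24 hpf cells. It was seen in 4 of the 9 cells, with a log2 difference of 1.41 for 24 over 11 hpf inside a spread of 4.66. The FPKM of ndufaf1, which acts on a membrane arm intermediate, was 1.43, 12.7 and 0 in the 6 hpf cells, 0.325, 27.6 and 0.434 in the 11 hpf cells and 51.2, 0.230 and 0 in the 24 hpf cells. Its mean at 24 hpf rested on 24_1 alone, and without that cell its difference for 24 over 6 hpf was −2.36 in place of 1.67.

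The other 3 had lower means at 24 than at 11 hpf, each with overlapping cells. The FPKM of ndufaf2, a paralog of ndufa12 that precedes it in the assembling enzyme, was 18.2, 8.26 and 0 in the 6 hpf cells, 47.9, 20.7 and 0 in the 11 hpf cells and 0, 0 and 35.2 in the 24 hpf cells. That of ndufaf6, which acts early in assembly, was 0, 38.6 and 0 in the 6 hpf cells, 93.4, 0 and 52.4 in the 11 hpf cells and 80.4, 16.3 and 20.3 in the 24 hpf cells. That of ndufaf7, a methyltransferase that acts early in assembly, was 58.5, 37.5 and 0 in the 6 hpf cells, 86.7, 0 and 66.0 in the 11 hpf cells and 0, 75.1 and 0 in the 24 hpf cells. Their log2 differences for 24 over 11 hpf were −0.91, −0.31 and −0.99, all inside spreads of 4.21, 3.77 and 5.11 in the same order. None of these genes was detected in all cells of any stage except ndufaf6 at 24 hpf.

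For 11 over 6 hpf all 6 assembly factors had higher means at 11 hpf, where 51.1% of all kept genes did. In 3 of the 6 (50%) the difference was at least 2-fold, against 21.7% of all kept genes. The median log2 difference of all kept genes was 0.03, and that of the assembly factors was 1.08. The spread between cells was 3.52, and all 6 were listed at 0 in cell 6_3. No factor had cells without overlap, where 5.78% of all kept genes had all cells higher and 6.96% all lower. Without 6_3 the median was 0.56. For 24 over 6 hpf, 5 were higher and 1 lower, where 48% of all kept genes were higher. At least 2-fold higher were 4 (66.7%), against 27.5% of all kept genes. The median of the assembly factors was 1.60 with a spread of 2.83. Without 24_1 that median was 0.70, and without 6_2 it was 3.02. Beside that 1.60, the median of the subunits for 24 over 6 hpf was 1.65. The difference between the subunits and the assembly factors was not tested, and the spread of the assembly factors was larger than the gap between the 2 medians in the comparison of 24 with 11 hpf.

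A further 11 genes known to act in complex I assembly, whose symbols do not begin with nduf, are a separate list. For 24 over 11 hpf 6 were higher and 5 lower at 24 hpf, and the median over the 10 kept was 0.33. At least 2-fold higher were 3 (27.3%), close to the 26.1% of all kept genes. At least 2-fold lower were 4 (36.4%), close to the 31.5% of all kept genes. In 2 of the 11 (18.2%) all cells at 24 hpf were above those at 11 hpf, against 8.62% of all kept genes. In another 2 of the 11 all were below, against 10.2%. Values are given for these genes only, and in the rest of the list the cells overlapped. The FPKM of tmem126a, a factor for the membrane arm, was 0, 59.5 and 0 in the 6 hpf cells, 0, 42.0 and 0 in the 11 hpf cells and 184, 75.9 and 124 in the 24 hpf cells, and that of tmem186, another membrane arm factor, was 0, 0 and 0 in the 6 hpf cells, 0, 35.4 and 0 in the 11 hpf cells and 106, 81.8 and 78.9 in the 24 hpf cells. Both had all cells at 24 hpf above those at 11 hpf, with log2 differences of 3.10 and 2.81. In the other direction, ecsit, a membrane arm factor also known from immune signalling, had an FPKM of 0, 13.5 and 34.0 in the 6 hpf cells, 16.2, 84.5 and 55.9 in the 11 hpf cells and 0, 0 and 13.1 in the 24 hpf cells, and tmem70, known also for assembling ATP synthase, had 134, 211 and 114 in the 6 hpf cells, 168, 257 and 206 in the 11 hpf cells and 0, 60.8 and 127 in the 24 hpf cells. Both had all cells at 24 hpf below those at 11 hpf, by log2 differences of −3.31 and −1.73.

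The ndufa4 family was carried by 1 gene. The FPKM of ndufa4l was 369.7, 421 and 255 in the 6 hpf cells, 176, 169 and 177 in the 11 hpf cells and 339, 838 and 761 in the 24 hpf cells. All cells at 11 hpf were below those at both other stages, and the 3 cells at 11 hpf were close to each other, with log2 differences of −1.0 (spread 0.38) for 11 over 6 hpf and 1.89 (spread 0.72) for 24 over 11 hpf. The gene listed as ndufa4 was at 3.72 FPKM in 24_2 and listed at 0 in the other 8 cells, and ndufa4l2a was listed at 0 in all 9. The naming differs between sources: the table of gene names pairs the identifier ENSDARG00000099499, listed here as ndufa4l, with the symbol NDUFA4, and ENSDARG00000056108, listed here as ndufa4, with ndufa4b. Counted with the subunits, the family left the median log2 difference for 24 over 11 hpf at 1.94.

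The 7 core subunits of the membrane arm that the mitochondrial genome encodes had summed levels that overlapped between the stages. Their summed FPKM was 1350.2, 1663 and 745 in the 6 hpf cells, 588, 1474 and 681 in the 11 hpf cells and 2101, 2322 and 646 in the 24 hpf cells. The cell 24_3 was thus below 11_2 and 11_3, although its nuclear subunits summed to 8322. All 7 had higher means at 24 than at 11 hpf, against 47.4% of all kept genes. The median log2 difference of the 7 was 1.16, with a spread of 1.04. In 4 (57.1%) the difference was at least 2-fold, against 26.1% of all kept genes. In 2 (28.6%) there was no overlap between cells, against 8.62%. The FPKM of mt-nd5, a proton-pumping subunit, was 283, 314 and 76.3 in the 6 hpf cells, 258, 446 and 228 in the 11 hpf cells and 401, 503 and 205 in the 24 hpf cells. That of mt-nd2, another of the pumps, was 210.0, 227 and 207 in the 6 hpf cells, 0, 249 and 277 in the 11 hpf cells and 619.7, 562 and 0 in the 24 hpf cells. It was high in 24_1 and 24_2 and listed at 0 in 24_3. For 24 over 6 hpf the median of the 7 was 0.09.

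Nuclear genes for other mitochondrial machines were higher at 24 hpf as well. Of 56 genes of complexes II to V, 46 were kept. These 46 had a median log2 difference of 1.02 for 24 over 11 hpf (spread 0.63), with 40 (87%) higher, against 47.4% of all kept genes. The 73 mitochondrial ribosomal protein genes, all kept, had a median of 0.81 (spread 0.50). At least 2-fold higher were 23 (50%) of the 46 and 35 (47.9%) of the 73, against 26.1% of all kept genes. The counts for complexes II to V are over kept genes only, and a high level at 24 hpf alone can satisfy the filter. The share of summed FPKM was 1.88 times as high at 24 as at 11 hpf for complexes II to V and 1.80 times for the mitochondrial ribosomal proteins, beside 3.61 times for the complex I subunits. The difference between these lists was not tested. The 80 cytosolic ribosomal protein genes had a median of 1.73, so a difference of this size was not particular to complex I.

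Of 9 genes for regulators of respiratory genes, 7 were kept, with 4 higher and 3 lower at 24 than at 11 hpf. At least 2-fold higher were 2 (28.6%), against 26.1% of all kept genes, and at least 2-fold lower 3 (42.9%), against 31.5%. In 1 (14.3%) all cells at 24 hpf were above those at 11 hpf, against 8.62% of all kept genes, and in 2 (28.6%) all were below, against 10.2%. The FPKM of pprc1, a coactivator of mitochondrial genes, was 102, 137 and 106 in the 6 hpf cells, 271, 194 and 130.3 in the 11 hpf cells and 0.278, 32.3 and 38.4 in the 24 hpf cells, and all cells at 24 hpf were below those at 11 hpf (log2 difference −3.02, spread 2.84). That of gabpa, a subunit of the factor also called NRF-2, was 0, 5.50 and 2.09 in the 6 hpf cells, 65.8, 47.1 and 54.0 in the 11 hpf cells and 11.9, 36.4 and 0 in the 24 hpf cells. It was higher in all cells at 11 than at 6 hpf and lower in all cells at 24 than at 11 hpf, with log2 differences of 4.0 and −1.73. The FPKM of tfam, which packages mitochondrial DNA and takes part in its transcription, was 0, 20.8 and 53.9 in the 6 hpf cells, 94.2, 45.3 and 57.7 in the 11 hpf cells and 44.4, 127 and 59.4 in the 24 hpf cells, with overlapping cells. That of yy1b, one of a pair of paralogs of the transcription factor YY1, was 12.4, 0 and 26.2 in the 6 hpf cells, 0, 26.5 and 10.7 in the 11 hpf cells and 30.5, 28.7 and 53.4 in the 24 hpf cells, and all cells at 24 hpf were above those at 11 hpf (log2 difference 1.52, spread 2.53). The FPKM of nrf1, a transcription factor of respiratory genes, was 21.6, 2.39 and 16.0 in the 6 hpf cells, 0, 0 and 0.184 in the 11 hpf cells and 0, 0 and 24.8 in the 24 hpf cells. Its cells at 11 hpf were all below those at 6 hpf, with a log2 difference of −3.75 and a spread of 1.48. Its log2 difference of 3.13 for 24 over 11 hpf came from 24_3, the only cell at 24 hpf in which it was seen, and the cells overlapped. The remaining kept genes, esrra and yy1a, had log2 differences of 0.64 and −1.92 with overlapping cells. The coactivator gene ppargc1a was listed at 0 in all 9 cells.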

How the data were processed

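Single PGCs were amplified and sequenced with Smart-Seq2 and Nextera XT libraries. Per the submitters' processing notes and the study's methods, reads were trimmed with Trimmomatic, aligned to danRer10 with HISAT2 2.0.5 and quantified with StringTie 1.3.3 against Ensembl release 89. The authors deposited the result as 1 table of FPKM per gene for 9 cells, with no counts, so depth per gene and counting error are unknown. Strand use in the quantification was not given in the sources used here.

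Members were found by symbol, and their grouping into subunits and assembly factors was written by hand. Members and lists were chosen with earlier results of these data known. Of 46 identifiers, 45 were in the table of gene names, 39 with the same symbol. Genes were kept if 3 or more cells had an FPKM of 1 or above. Differences were taken between values of log2(mean FPKM + 1) with a pseudocount of 1, a scale that understates differences of low genes. A list's spread combines the SD of its median between the cells of 2 stages. Scripts used Python 3.11.15, numpy 2.4.6 and pandas 2.3.3 and were checked on simulated data. No test was run, because the 3 cells of a stage came from 1 embryo.

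Values in all 9 cells were given for core subunits, except 1 that is counted but not reported by name here, paralogs, assembly factors, ndufa4l and the 5 subunits with the largest difference in each direction for 24 over 11 hpf and 11 over 6 hpf, among those that reached an FPKM of 1 in each cell of the stage with the higher mean. Only ndufv1 was lower for 24 over 11 hpf. Promoter motifs and protein lengths were not analysed here.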

Additional observations from a re-analysis of the deposited data

How the results depend on the processing

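Alternatives covered the pseudocount (0.1 and 10), the filter, rescaling to TPM and median-of-ratios factors. They also covered a total without 13 genes of the mitochondrial genome, the mean of logs, leaving out each cell, and the makeup of the lists. The highest gene in every cell, AC024175.4, took from 6.92% of the summed FPKM in 24_3 to 17.96% in 6_1. A total without this gene was not among the alternatives. Leaving out 11_3 and 24_1 together, and counting genes named in capitals, were added after seeing the data. Of 53 medians of the subunits, 2 moved by more than the spread between cells. Of 50 medians of the assembly factors none did, but their spreads were 2.83 to 3.52, which few changes could exceed. Their median for 24 over 6 hpf, for example, went from 1.60 to 3.02 without 6_2. Of the 103 medians, 7 changed sign. These were 3 of the subunits for 11 over 6 hpf and 4 of the assembly factors for 24 over 11 hpf, whose spread was 3.46. Beside those given above, the assembly factors had −0.31 with 24_3 alone and −0.56 without 11_3 and 24_1. The subunits at least 2-fold higher at 24 than at 11 hpf numbered 26 to 30. Among all genes in the same settings, those at least 2-fold higher made up from 16.2%, with a pseudocount of 10, to 30.6%, without 11_3. The share of summed FPKM of all subunits was 3.16 to 3.84 times as high, and a scaling of the whole library cannot change that share. The subunit median for 24 over 11 hpf was 2.52 with the mean of logs and 1.52 with 24_3 alone at 24 hpf, against 1.96. Leaving out 1 cell gave 1.77 to 2.15. Median-of-ratios factors put the median of all genes at −0.19 for 24 over 11 hpf and −0.32 for 24 over 6 hpf; relative to it the subunits were at 2.03 and 1.74, against 2.04 and 1.75. With these factors, 34 kept subunits were higher and 2 lower for 24 over 6 hpf, and 14 were higher and 22 lower for 11 over 6 hpf.

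Of 1763 values for single genes, 109 changed sign, 8 of them in genes with a difference of at least 2-fold, and a further 18 of the 1763 moved beyond the spread without such a reversal. The 8 were these. For 11 over 6 hpf, ndufa10 was −0.065 and ndufaf4 −1.70 without 11_3, with or without 24_1. Leaving out 1 cell gave −0.065 to 2.08 for ndufa10 and −1.70 to 3.96 for ndufaf4. For 24 over 6 hpf, ndufaf1 was −2.36 without 24_1, with or without 11_3, and −2.52 with 24_3 alone. Leaving out 1 cell gave −2.36 to 3.40. For 24 over 11 hpf, ndufa7 was −2.84 with 24_3 alone. In each of these genes some cells of a stage were listed at 0.

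No paired analysis was possible because no result comes from a test, and the replicate numbers name cells of different embryos. With 1 embryo at each stage, stage, embryo and dissection cannot be told apart.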

Other observations

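Genes of complex I outside the symbol rule were read separately, after their values had been seen. The table lists 4 symbols in capitals, NDUFAF3, NDUFAF8, NDUFC1 and NDUFA4L2, and the table of gene names pairs a gene listed as CABZ01076616.1 with the symbol NDUFB1. The FPKM of NDUFAF3, an assembly factor that works with NDUFAF4, was 13.1, 0 and 0 in the 6 hpf cells, 0, 16.9 and 7.18 in the 11 hpf cells and 36.4, 30.8 and 38.0 in the 24 hpf cells. Its cells at 24 hpf were all above the earlier ones. NDUFAF8, a partner of NDUFAF5, was at 0, 168 and 101 FPKM in the 6 hpf cells, 0, 0 and 47.9 in the 11 hpf cells and 0, 1.76 and 57.5 in the 24 hpf cells, with overlap between all stages.

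The FPKM of NDUFC1, a membrane arm subunit, was 77.7, 180.2 and 83.8 in the 6 hpf cells, 105, 0 and 56.4 in the 11 hpf cells and 221, 146 and 99.5 in the 24 hpf cells, and the cells at 24 and 11 hpf overlapped because 11_1 was above 24_3. CABZ01076616.1 was listed at 0 in 6_1, 6_2, 6_3, 11_2 and 11_3, and was at 56.4 in 11_1 and at 113, 129 and 114 in the 24 hpf cells. NDUFA4L2 was listed at 0 in all 9 cells. Counting the subunits among these genes gave 30 subunits at least 2-fold higher at 24 than at 11 hpf, of 38 kept. Among all kept genes the share was 26.1%. CABZ01076616.1, which is in this count, passed the filter on low values only with its cells at 24 hpf.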
